A study of Mus musculus with 8 samples.

Results

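The genes described here are the 7 that make, recycle and break down glutathione inside the cell: Gclc, Gclm, Gss, Gsr, Chac1, Ggct and Oplah. They were taken by name from the deposited array table, from rows annotated with exactly 1 gene symbol. Each of the 7 had 1 such row, among 19938 genes measured in all. The hearts came from 4 MHC-Plin5 mice and 4 control mice. All were male, on a c57/bl background and 12 weeks old, and the hearts were labelled as fasted. The series title describes the MHC-Plin5 mice as overexpressing plin5 in cardiomyocytes, the contracting cells of the heart. Perilipin 5, the product of Plin5, coats lipid droplets. The labels do not state how long the mice fasted, how many transgenic lines were used or how the control mice were bred. RNA was read on whole-transcript Affymetrix arrays, and every level below is a log2 value made by the authors with RMA, a probe-set summary, per the submitters' processing notes.

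Glutathione is a tripeptide of glutamate, cysteine and glycine and the main small thiol of the cell. Glutamate-cysteine ligase joins glutamate to cysteine in the rate-limiting step, and glutathione synthetase adds glycine. Glutathione then donates electrons to peroxidases and glutaredoxins, and glutathione reductase returns the oxidised form with NADPH. Inside the cell it is cleaved by cyclotransferases of the ChaC type, which release pyroglutamate and cysteinylglycine. In heart muscle, with its heavy mitochondrial respiration, glutathione is a main defence against peroxides. Transcription of the ligase subunits is known to respond to NRF2, and that of Chac1 to ATF4, the transcription factor of the integrated stress response.

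The RefSeq promoter table, on the build GRCm38.p6, held a window for 4 of the 7 genes: Chac1, Gss, Gclm and Ggct. Positions are counted from the annotated transcript start, with base -1 just before it. The 250 bases before the start are shown for Chac1 and Gss, the 2 genes with the smallest p among the 7. Stretches of 30 bases around a match are shown for Gclm and Ggct. Capitals mark matches to 3 motifs, searched on both strands: TGACNNNGC, the core of the antioxidant response element bound by NRF2, TGATGCAA, a core of the composite element bound by ATF4 with C/EBP proteins, and TGACGCAA, a variant that starts like a cyclic AMP response element. The motifs were chosen with these sequences in view.
Chac1, chr2:119350992-119351241, plus strand: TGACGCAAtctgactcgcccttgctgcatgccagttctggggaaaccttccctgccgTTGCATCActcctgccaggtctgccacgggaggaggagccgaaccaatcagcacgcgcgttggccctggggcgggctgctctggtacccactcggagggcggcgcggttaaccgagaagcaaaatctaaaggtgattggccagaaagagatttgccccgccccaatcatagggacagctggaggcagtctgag
Gss, chr2:155592811-155593060, minus strand: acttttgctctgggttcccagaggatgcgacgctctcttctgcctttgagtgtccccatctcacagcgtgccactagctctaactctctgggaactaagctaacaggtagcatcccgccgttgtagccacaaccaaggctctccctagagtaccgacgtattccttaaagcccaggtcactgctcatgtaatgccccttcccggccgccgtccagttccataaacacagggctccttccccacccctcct
Gclm, chr3:122245413-122245442, plus strand: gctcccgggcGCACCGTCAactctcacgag
Ggct, chr6:54993022-54993051, minus strand: caatagaaaaGCGACGTCAgtgggcgggag
The Chac1 window held TGACGCAA from base -250 and, on the opposite strand, TGATGCAA, read here as TTGCATCA from base -193. Of all 32851 promoter windows of 300 bases, 0.490% held TGACGCAA and 0.895% held TGATGCAA. Matches to the antioxidant response element core lay at base -134 of Gclm and at bases -174 and 6 of Ggct, against 12.4% of all windows with at least 1. The window of Gss held no match to any of the 3 motifs. TGACNNNGC and TGACGCAA share their first 4 letters, and no matches overlapped in these windows. A match is a description of letters and not a measured binding site.

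Of the 7 genes, 3 were higher in MHC-Plin5 hearts and 0 were lower in limma, at a Benjamini-Hochberg adjusted p under 0.05 over all 19938 genes. Over all genes, 2.08% were called higher and 1.17% lower. At an unadjusted p under 0.05, 5 of the 7 were higher and 0 lower, beside 8.69% and 7.86% of all genes. The 3 were Chac1, Gss and Gclc. Gclm and Gsr had differences in the same direction that were not called, and the differences of Ggct and Oplah were below 0 and not called. The median difference over the 7 was 0.53 on the log2 scale, against -0.03 over all genes. In 4 of the 7 all MHC-Plin5 hearts lay above all control hearts, which held for 6.24% of all genes. Since these are whole hearts, more RNA per cell and more cells of an expressing type cannot be told apart. The plot of log2 differences shows the 7 genes with their intervals.

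**Figure D1:**
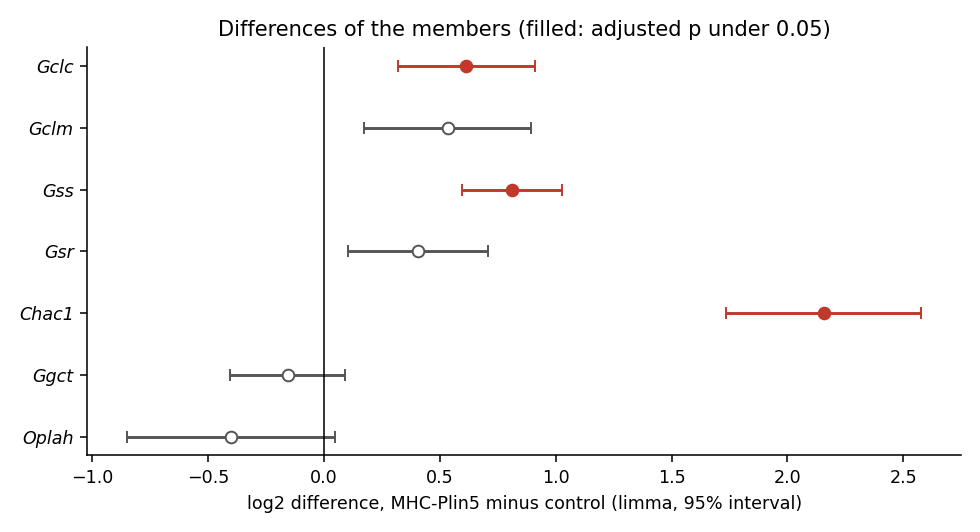
The horizontal axis is the log2 difference between MHC-Plin5 and control hearts for each of the 7 genes, with its 95% interval from limma, and filled points mark genes called at an adjusted p under 0.05. Chac1 stands at 2.16, Gss at 0.81 and Gclc at 0.61, and the intervals of Ggct and Oplah span 0.

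The first enzyme of the pathway is built from the products of Gclc and Gclm. Gclc encodes the catalytic subunit, which carries the active site. Its log2 level was 8.25, 8.14, 8.10 and 8.0 in control hearts 1 to 4 and 8.48, 8.92, 9.02 and 8.53 in MHC-Plin5 hearts 1 to 4. The groups did not overlap: the lowest MHC-Plin5 heart, number 1, lay 0.23 above the highest control heart. Hearts 2 and 3 were the high ones among the MHC-Plin5 hearts. Gclc was 1.53-fold higher (log2 difference 0.61, SE 0.14, limma adjusted p = 0.0339). The spread was 0.27 in MHC-Plin5 and 0.11 in control hearts (SD, n = 4 each). The call of Gclc ended without any single control heart, without MHC-Plin5 2 or without MHC-Plin5 3, with adjusted p values up to 0.118 in limma. It also ended when every row of the table was tested (adjusted p = 0.0926), with the heart number as a block (0.0554), with array medians as a covariate (0.0545) and in a per-gene test with separate group variances (0.28). Of all 19938 genes, that last test called 23 higher and 5 lower.

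Gclm encodes the modifier subunit, which lowers the enzyme's Km for glutamate and relieves feedback inhibition by glutathione. Control hearts 1 to 4 stood at 9.18, 9.41, 9.28 and 8.86, and MHC-Plin5 hearts 1 to 4 at 9.63, 9.83, 10.06 and 9.34. Only MHC-Plin5 4 lay within the control range, and the other 3 lay above it. The log2 difference was 0.53 (SE 0.16, 95% interval 0.17 to 0.90) and was not called (limma adjusted p = 0.116). Without MHC-Plin5 4 it was 0.66 and called (adjusted p = 0.032). It was also called with array weights (0.0198), with the heart number as a block (0.0493) and without the 2 arrays with the highest medians (0.0389).

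Gss encodes glutathione synthetase, which adds glycine in the second and last step. Its levels were 7.50, 7.62, 7.67 and 7.37 in control hearts 1 to 4 and 8.29, 8.43, 8.32 and 8.36 in MHC-Plin5 hearts 1 to 4. The 4 MHC-Plin5 hearts lay close together (SD 0.06, n = 4, against 0.13 in control hearts, n = 4) and the lowest was 0.62 above the highest control. Gss was 1.75-fold higher (log2 difference 0.81, SE 0.10, limma adjusted p = 0.00165) and ranked number 51 of all genes by p. The difference stayed between 0.76 and 0.85 with any single heart left out, and all 8 of these fits called it. A per-gene test with separate group variances, which borrows no variance from other genes, did not (adjusted p = 0.0936).

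Gsr encodes glutathione reductase, which regenerates glutathione from its oxidised form. Control hearts 1 to 4 had levels of 9.03, 8.70, 8.87 and 8.89. In MHC-Plin5 hearts 1 to 4 the levels were 9.08, 9.65, 9.31 and 9.07. The groups did not overlap, but MHC-Plin5 4 and MHC-Plin5 1 were both within 0.05 of control 1. The log2 difference of 0.41 (SE 0.14, 95% interval 0.10 to 0.71) was not called in limma (adjusted p = 0.154) and was called only with array weights (0.0477), among 22 alternatives.

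Chac1 encodes the stress-inducible cyclotransferase that cleaves glutathione. It showed the largest difference of the 7 genes. The log2 levels were 7.15, 7.12, 6.91 and 7.13 in control hearts 1 to 4 and 8.56, 9.54, 9.31 and 9.51 in MHC-Plin5 hearts 1 to 4. All 4 MHC-Plin5 hearts were far above the control hearts, with a gap of 1.42 between the groups. MHC-Plin5 1 was the lowest of them. Chac1 was 4.46-fold higher (log2 difference 2.16, SE 0.19, limma adjusted p = 0.000219) and ranked number 19 of all genes by p. Its spread was 0.46 in MHC-Plin5 and 0.11 in control hearts (SD, n = 4 each). The call held with any single heart left out, with adjusted p values up to 0.00211, and ended in the per-gene test with separate group variances (0.162). Chac2, the related cyclotransferase that is expressed without stress, had a log2 difference of -0.29 (8.58 ± 0.25 against 8.87 ± 0.21, SD, n = 4 each) and was not called (limma adjusted p = 0.353).

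Ggct and Oplah form and use pyroglutamate, a product of breakdown. Ggct encodes gamma-glutamylcyclotransferase, which splits gamma-glutamyl amino acids into pyroglutamate and a free amino acid. It stood at 6.60, 6.88, 6.78 and 6.66 in control hearts 1 to 4 and at 6.76, 6.36, 6.52 and 6.66 in MHC-Plin5 hearts 1 to 4. The groups overlapped, with 2 MHC-Plin5 hearts below the lowest control. The log2 difference was -0.16 (SE 0.11, 95% interval -0.41 to 0.09, limma adjusted p = 0.546). Oplah encodes oxoprolinase, which opens pyroglutamate to glutamate. Its level was 8.26, 8.43, 8.34 and 8.07 in control hearts 1 to 4 and 8.09, 7.35, 7.61 and 8.43 in MHC-Plin5 hearts 1 to 4. MHC-Plin5 2 and 3 lay well below all controls, while MHC-Plin5 1 and 4 lay within the control range. The log2 difference was -0.40 (SE 0.20, 95% interval -0.85 to 0.05) and was not called in limma (adjusted p = 0.363). The SD of Oplah was 0.48 in MHC-Plin5 and 0.16 in control hearts (n = 4 each), and the difference ranged from -0.59 without MHC-Plin5 4 to -0.23 without MHC-Plin5 2.

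**Figure D2:**
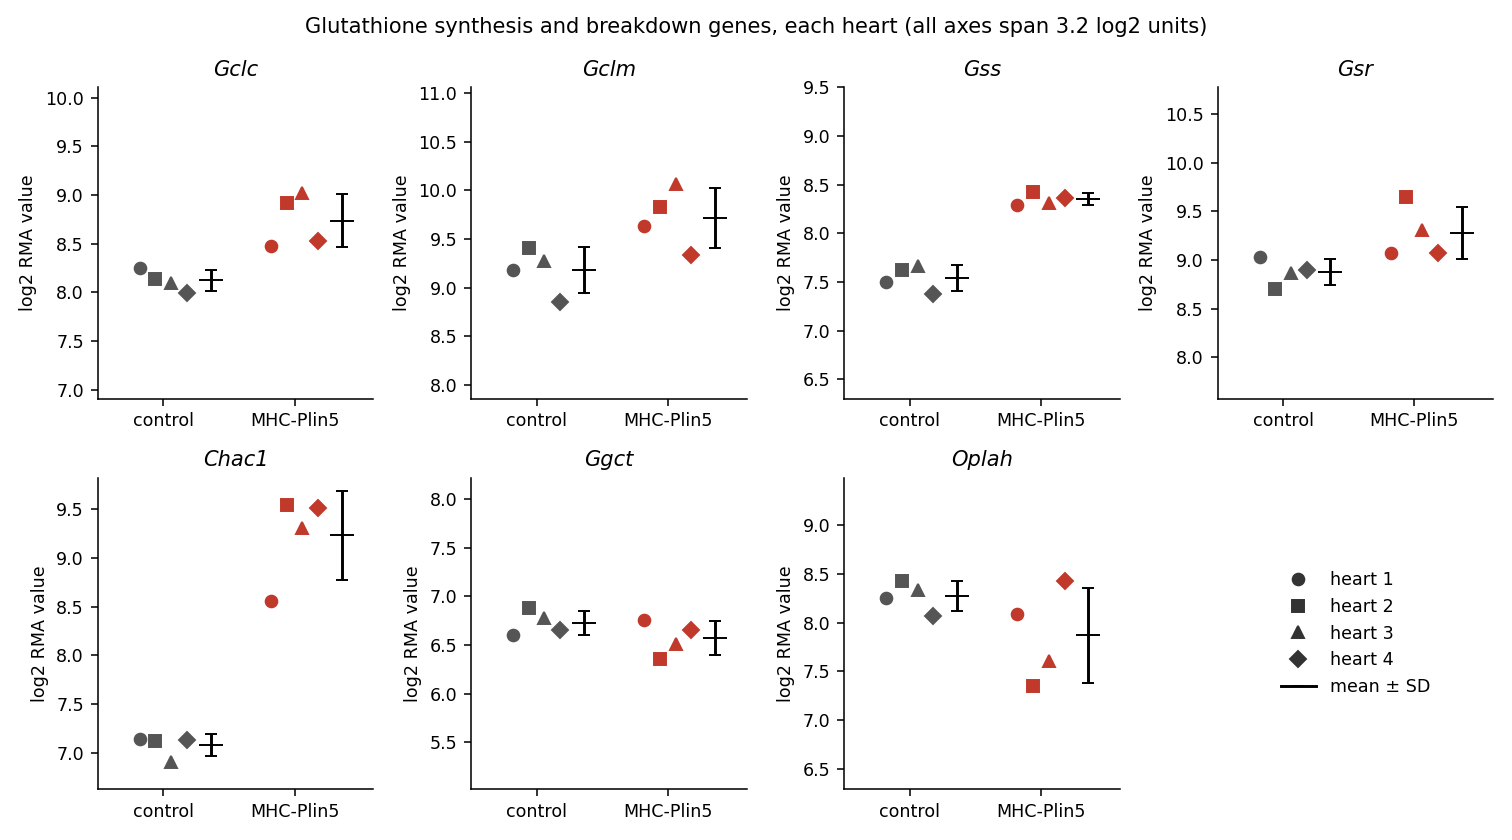
Each panel plots the log2 RMA value of 1 gene in every heart, with a symbol for the heart number and a bar for the mean and SD of each group (n = 4). The MHC-Plin5 hearts lie above the control hearts without overlap for Gclc, Gss, Gsr and Chac1, and MHC-Plin5 4 lies within the control range for Gclm, Ggct and Oplah.

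MHC-Plin5 hearts 2 and 3 were the 2 farthest in the direction of the difference for 5 of the 7 genes: Gclc, Gclm, Gsr, Ggct and Oplah. For Gss and Chac1 they were hearts 2 and 4. Plin5 was also highest in hearts 2 and 3, at 12.69 and 12.63 against 12.17 and 12.08 in hearts 1 and 4. Its control levels ran from 8.58 to 9.04, so the Plin5 level of every array matched its genotype label. The order is shared widely: hearts 2 and 3 were the 2 farthest in 56.6% of the 415 genes called higher and 65.7% of the 233 called lower. With 4 hearts in 1 group, no correlation with the Plin5 level was computed.

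Whether genes of the pathway changed unequally was examined within hearts, with 4 pairs compared. The log2 ratio of 2 genes in each heart was set against the mean of that ratio in control hearts, since levels of different probe sets are not on 1 scale. The ratio of Chac1 to Ggct was higher by 1.46, 2.84, 2.45 and 2.51 in MHC-Plin5 hearts 1 to 4, where control hearts ran from -0.22 to 0.20. For Chac1 to Gclc the shifts were 1.13, 1.67, 1.34 and 2.03, against -0.14 to 0.18. In both ratios all 4 MHC-Plin5 hearts lay above all controls (mean shifts 2.31, SE 0.31, and 1.54, SE 0.21). Each had an exact two-sided permutation p of 0.0286, the smallest that 4 against 4 hearts allow, and 0.0571 after Benjamini-Hochberg adjustment over the 4 pairs. These 2 pairs therefore did not pass the adjusted threshold of 0.05. They could not have passed unless another of the 4 pairs had also reached that smallest p. The adjusted value thus does not decide whether these genes changed unequally. The ratio of Gclm to Gclc, the subunits of 1 enzyme, shifted by -0.08 (SE 0.12, exact permutation p = 0.543, adjusted 0.543), and every leave-one-out value lay between -0.15 and -0.01. That of Gss to Gclc shifted by 0.20 (SE 0.15, exact permutation p = 0.257, adjusted 0.343), from 0.12 to 0.30 with 1 heart left out. No difference between these last genes' changes was detected with 4 hearts per group.

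**Figure D3:**
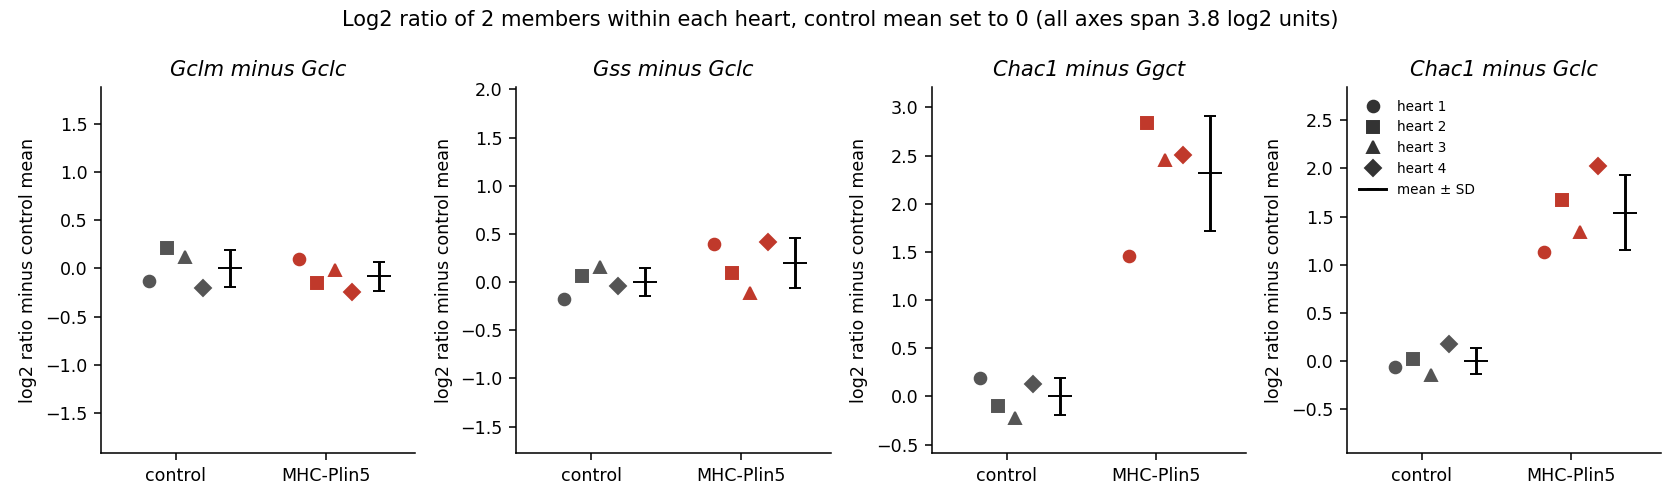
Each panel plots, for every heart, the log2 ratio of 2 genes minus the mean of that ratio in control hearts, with a bar for the mean and SD of each group (n = 4). Chac1 over Ggct and Chac1 over Gclc are shifted upward in all 4 MHC-Plin5 hearts, while the groups overlap for Gclm over Gclc and Gss over Gclc.

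The wider setting of the pathway was read from 6 lists of other genes, 95 measured of 99 listed. In limma 22 were higher and 2 lower, or 23.2% and 2.11%, beside 2.08% and 1.17% of all genes. Their median difference was 0.12, against -0.03 over all genes. A per-gene test with separate group variances called 3 of the 95, all higher, beside 23 higher and 5 lower of all 19938 genes. Both lower calls of limma ended without any single heart except MHC-Plin5 1 or MHC-Plin5 4. The plot of these lists gives each gene's difference.

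**Figure D4:**
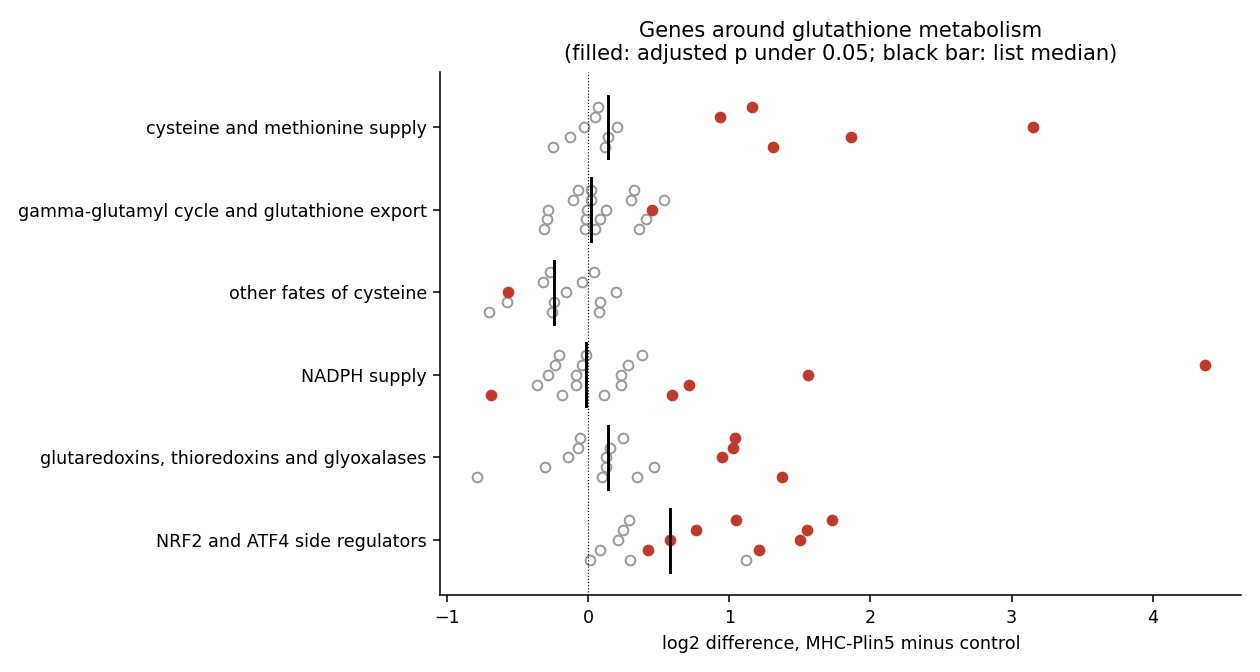
The horizontal axis is the log2 difference between MHC-Plin5 and control hearts for 95 genes in 6 lists, with filled points for genes called at a limma adjusted p under 0.05 and a black bar for each list's median. The called genes are mostly above 0, with Mthfd2 at 4.37 and Slc7a11, which was dim in control hearts, at 3.15, and the list of other fates of cysteine has its median at -0.24.

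Cysteine is the scarce building block of glutathione, and 5 of 13 genes of cysteine and methionine supply were higher, with 0 lower and a list median of 0.14. Slc7a11 and Slc3a2 encode the light and heavy chains of the cystine importer. Slc7a11 had levels of 3.69, 4.13, 4.16 and 4.11 in control hearts 1 to 4 and of 7.29, 7.54, 7.83 and 6.03 in MHC-Plin5 hearts 1 to 4. The control levels of Slc7a11 lay below the median of all rows on every array, no detection call was used here, and the difference of 3.15 may understate the change. MHC-Plin5 4 was the lowest of its group. Slc3a2 was at 12.07 ± 0.23 against 10.92 ± 0.08 (SD, n = 4 each), a 2.23-fold rise. Slc6a9, though counted among the 5, is a glycine transporter. It was 3.64-fold higher (log2 difference 1.86, SE 0.11, limma adjusted p = 8.52e-06), with hearts at 8.95 to 9.35 against 7.22 to 7.42. Slc1a4, a carrier of alanine, serine and cysteine, had a log2 difference of 1.31 (SE 0.22). Cth, which releases cysteine from cystathionine, rose 1.91-fold, to 7.14 ± 0.37 against 6.20 ± 0.25 (SD, n = 4 each), and its call ended when control 1, control 2, control 3 or MHC-Plin5 2 was left out. Cbs, the enzyme before it in the same route, was not called (-0.03, adjusted p = 0.944).

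Among 19 further genes of the gamma-glutamyl cycle, dipeptide cleavage and glutathione transport, 1 was higher and 0 lower (median 0.02). It was Abcc1, an exporter of glutathione and its conjugates, with 8.57, 8.64, 8.69 and 8.54 in control hearts and 8.80, 9.10, 9.18 and 9.17 in MHC-Plin5 hearts 1 to 4. Its log2 difference was 0.45 (SE 0.11, limma adjusted p = 0.0455), and the call ended with any single heart left out except MHC-Plin5 1. In the list of other fates of cysteine 1 of 13 genes was lower and 0 higher. Tst, the mitochondrial sulfurtransferase rhodanese, was at 7.64 ± 0.24 against 8.21 ± 0.06 (SD, n = 4 each; log2 difference -0.57, SE 0.12, limma adjusted p = 0.0316). That call held only without MHC-Plin5 1 or without MHC-Plin5 4. Cdo1, which oxidises cysteine, had a difference of -0.71 that was not called (limma adjusted p = 0.308). Control 4 was high for Cdo1, at 7.36, where the other control hearts lay between 5.57 and 6.22.

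Gsr and the thioredoxin reductases need NADPH, and 4 of 19 genes of NADPH supply were higher and 1 lower (median -0.02). Pgd, of the pentose phosphate pathway, was 1.51-fold higher (9.38 ± 0.17 against 8.78 ± 0.09), and Me2, a mitochondrial malic enzyme that works mainly with NAD, was 1.64-fold higher (8.18 ± 0.23 against 7.47 ± 0.18, SD, n = 4 each). Me3, the mitochondrial malic enzyme that yields NADPH, was lower, with a log2 difference of -0.69 (SE 0.16, limma adjusted p = 0.041). The mitochondrial folate enzymes Mthfd2, which works mainly with NAD, and Aldh1l2, which yields NADPH, had the largest rises in the list, 4.37 (SE 0.18) and 1.56 (SE 0.18). The calls of Pgd, Me2 and Me3 did not hold in every fit with a single heart left out. Pgd lost its call without control 1 or MHC-Plin5 2, and Me2 without control 2, control 4 or MHC-Plin5 2. Me3 was called only without MHC-Plin5 1 or without MHC-Plin5 4.

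In the neighbouring thiol systems, 4 of 16 genes of glutaredoxins, thioredoxins and glyoxalases were higher and 0 lower (median 0.14). Esd, a hydrolase that frees glutathione from S-formylglutathione, was 2.04-fold higher, with 10.25, 10.10, 10.23 and 10.22 in MHC-Plin5 hearts 1 to 4 and 9.09, 9.34, 9.16 and 9.10 in control hearts 1 to 4. The groups lay 0.76 apart (log2 difference 1.03, SE 0.10, limma adjusted p = 0.000325). Esd had 2 rows, and only the brighter is described here. Txnrd1, the cytosolic thioredoxin reductase, was 1.93-fold higher (9.21 ± 0.25 against 8.26 ± 0.23, SD, n = 4 each). Srxn1, which repairs peroxiredoxins, and Sesn2, a stress-induced sestrin, had differences of 1.37 (SE 0.18) and 1.04 (SE 0.18), and Sesn2 lost its call without control 1, control 3 or MHC-Plin5 2. Glrx, the cytosolic glutaredoxin that uses glutathione directly, had a difference of -0.79 without overlap between the groups and was not called (adjusted p = 0.0828).

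Of 15 regulators on the NRF2 and ATF4 sides, 8 were higher and 0 lower, with a median of 0.58. On the ATF4 side, Atf5 was 3.31-fold and Trib3 2.92-fold higher (log2 differences 1.73, SE 0.19, and 1.55, SE 0.17). Atf4 itself had 8.62, 9.16, 9.22 and 8.70 in MHC-Plin5 hearts 1 to 4, above 7.20, 7.48, 7.52 and 7.50 in control hearts 1 to 4. Its partner Cebpg was 2.31-fold higher (9.07 ± 0.31 against 7.86 ± 0.18, SD, n = 4 each). Ddit3, also called CHOP, was called as well, and Atf3 was not (1.12, adjusted p = 0.114). On the NRF2 side, Nfe2l2, the gene of NRF2, was at 10.53 ± 0.16 against 10.23 ± 0.04 (SD, n = 4 each) and not called (0.30, SE 0.10, limma adjusted p = 0.158). Keap1, its inhibitor, was not called (0.01, adjusted p = 0.971). The small MAF partners Mafg and Mafk were higher by 0.43 and 0.58 on the log2 scale, and Sqstm1, which binds Keap1, by 0.76. Mafg kept its call only without MHC-Plin5 4, and Mafk only without control 2, MHC-Plin5 1 or MHC-Plin5 4.

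For each of the 7 genes, the 3 other genes with the highest Pearson correlation over the 8 hearts were listed. This is a description of likeness over hearts that share a genotype. The 7 genes themselves and predicted genes (names of the Gm, Rik or LOC kind) were left out of the lists and counts. Chac1 was most like Ppp1r15a (r = 0.989), a phosphatase subunit of the integrated stress response, Slc6a9 (0.987) and Tars (0.982), a threonyl-tRNA synthetase. Gss was most like Xpot (0.993), which exports transfer RNA, Nhp2 (0.991) and Manbal (0.989). Gclc was most like Erlin1 (0.994), Zmat3 (0.991) and Dync1li1 (0.991), and Gclm was most like Wdr12 (0.986), Poglut1 (0.980) and Nol11 (0.978). The nearest to Gsr were Dnajb4 (0.972), Slk (0.965) and Abra (0.964). For Ggct they were Plcl2 (0.983), Kdr (0.979) and Gas2 (0.976), and for Oplah Tollip (0.994), Rbfa (0.993) and Kcnh2 (0.992). Gsr had 5 genes above an r of 0.95 and Gclc 122. With 8 hearts in 2 groups, many genes reach such values.

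Facts of the whole set were as follows. Array medians ran from 5.99 to 6.25, with control 2 and MHC-Plin5 4 highest. The 8 cardiomyocyte markers had a mean level of 13.40 to 13.46 in control and 13.19 to 13.42 in MHC-Plin5 hearts, against these array medians, and 0 were called, with 7 of the 8 differences below 0 (median -0.11). In the lists of fibroblasts, endothelial, mural, blood and fat cells and of atrial cardiomyocytes, 0 of 40 markers were called. Over all genes 2.08% were called higher and 1.17% lower, so 0 calls among so few markers says little. Over all genes, 8473 differences were above 0 and 11465 below. The groups did not overlap for Pln (-0.11), Tnni3 (-0.16), Rgs5 (-0.36) and Cspg4 (0.34). Of all 19938 genes, 1244 were higher and 996 lower without overlap. All 7 fibroblast markers had differences above 0 (median 0.30), with mean levels of the list from 8.74 to 9.22 in control and 8.92 to 9.57 in MHC-Plin5 hearts. So did 6 of 8 markers of macrophages and leukocytes (median 0.27; 6.98 to 7.38 and 7.12 to 7.65) and all 5 atrial markers (median 0.97; 7.25 to 11.33 and 8.04 to 11.63). The 5 adipocyte markers had a median of -0.58, with 4 below 0. In each of those below 0, control 4 was the highest heart, for Retn at 8.82 against 5.57 to 6.68 in the others. In each of these 4 lists the ranges of the 2 groups overlapped. Their part in the values of the 7 genes was not tested.

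**Figure D5:**
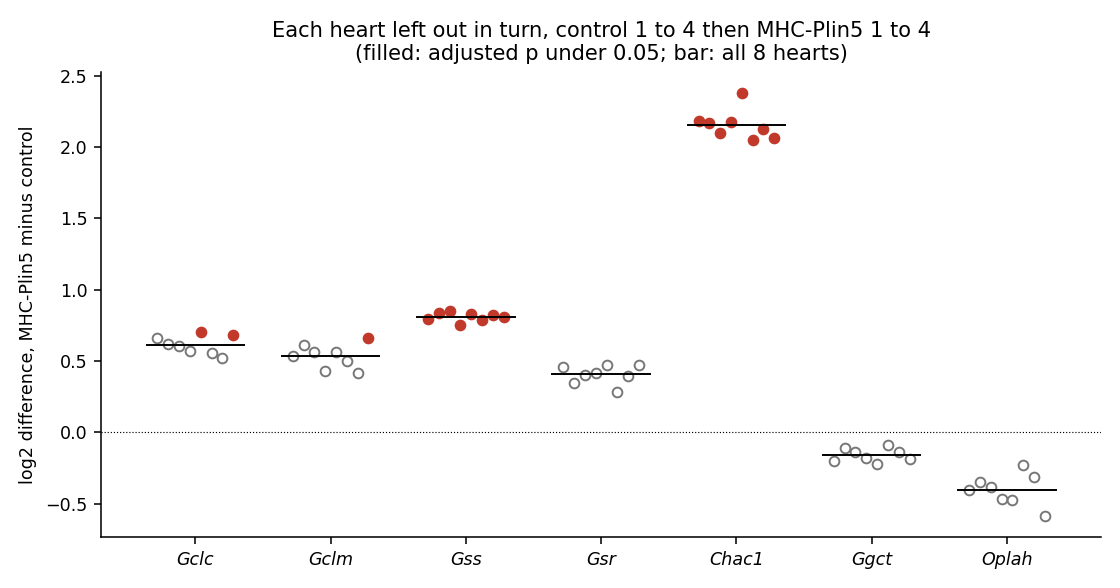
The vertical axis is the log2 difference of each of the 7 genes after leaving out 1 heart, from control 1 to MHC-Plin5 4 in order, with filled points where the limma adjusted p was under 0.05 and a bar for all 8 hearts. Chac1 and Gss are filled in all 8 cases, Gclc in 2, Gclm in 1, and Gsr, Ggct and Oplah in none.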

How the data were processed

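The authors deposited log2 values from RMA in Affymetrix Expression Console, as the submitters' processing notes name it; the version and summary level were not stated there. Of 35556 rows, 21789 carried exactly 1 gene symbol in GEO's platform annotation, and keeping the brightest row of each gene gave 19938 genes. RMA can narrow differences of dim probe sets.

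Genotype was the only term in limma 3.58.1 (lmFit, eBayes; R 4.3.3), two-sided, with Benjamini-Hochberg adjustment over all genes and a threshold of 0.05. A difference is the MHC-Plin5 mean less the control mean. The fit was tested on simulated data. Exact permutation tests used scipy 1.17.1 and plots matplotlib 3.10.9, in Python 3.11.15. Each heart counted as 1 animal. The number of arrays limits precision; scan dates were not used here, so no batch was tested.

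The 7 genes and 6 lists were chosen with earlier results of these data known. Called genes of each list are named, up to 4 by p in each direction. Cth, Ddit3, Sqstm1, Mafg, Mafk and the uncalled genes of the lists were named after their values were seen. Alternatives covered filters at a mean of 5 or 7, normalization, variance models, array weights, row handling, the heart number as a block, the array median, single hearts left out, a threshold of 0.01 and a per-gene test with separate group variances.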

Additional observations from a re-analysis of the deposited data

Results flagged for a closer look

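A heart stood far from the other 3 of its group in 7 of the 72 sets of 4 values checked, over the 7 glutathione genes, 24 called genes around them, Plin5 and the 4 ratios. Chance flags about 1 group in 20. Chac1 was low in control 3, at 6.91, where the other control hearts lay between 7.12 and 7.15. Aldh1l2 was also low in control 3 (6.72). Atf4 and Slc7a11 were low in control 1 (7.20 and 3.69), where Cebpg was high (8.13). Cth was low in control 2 (5.83). Mthfd2 was low in MHC-Plin5 4 (10.25), where the other 3 MHC-Plin5 hearts lay between 11.00 and 11.14.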

How the results depend on the processing

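All 7 glutathione genes kept the sign of their difference under every alternative in which they were tested (22, and 21 for Ggct, which the filter at a mean of 7 removed). Many of these could not change a sign, because they left the differences of the 7 genes as they were. They were the filters, variance trends, row handling, heart number as a block, threshold of 0.01 and test with separate group variances. The number called higher, 3 with all hearts, was 2 to 4 with 1 heart left out, 5 with array weights and 0 in the per-gene test with separate group variances. Counts over all genes moved too: from 415 higher and 233 lower to 884 and 741 with array weights, and to 170 to 614 higher with 1 heart left out. Among the 7 glutathione genes, the number called lower was 0 throughout. Among the 95 genes around them, the 22 called higher became 15 to 22 with 1 heart left out, 13 at a threshold of 0.01 and 3 with separate group variances. The 2 called lower became 0 to 4 with 1 heart left out, 4 with array weights and 1 with the array median as a covariate. They became 0 when every row was tested, at a threshold of 0.01 and with separate group variances. Over all genes, that last test called 23 higher and 5 lower. The shift of Chac1 to Ggct ran from 2.14 to 2.60 and that of Chac1 to Gclc from 1.38 to 1.68 with 1 heart left out. Leaving out 1 heart allows no exact p under 0.05, so these are values with no test. The heart numbers were not taken to pair hearts: deviations of same-numbered hearts correlated at 0.19, 0.03, -0.11 and -0.04, and 2 of the 8 hearts correlated best with their own number in the other group. With the replicate block 330 genes were higher and 177 lower, and Gclm replaced Gclc among the 3 called members (adjusted p = 0.0493 and 0.0554). The cause of these changes was not tested.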

Other observations

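The 2 highest MHC-Plin5 hearts were not the same in all the genes around glutathione that were called higher. Hearts 2 and 3 were the 2 highest in 15 of the 22 genes called higher, or 68.2%, beside 56.6% of all 415 genes called higher. Atf4 was one of them, at 9.16 and 9.22 in hearts 2 and 3 against 8.62 and 8.70 in hearts 1 and 4. In 2 of the 22 (9.09%), Atf5 and Aldh1l2, hearts 1 and 4 were highest instead. Abcc1, Esd, Mafg, Mthfd2 and Slc6a9 had other pairs of hearts highest. Atf5, a relative of Atf4 whose product acts in mitochondrial stress, stood at 9.57 and 9.71 in hearts 1 and 4 and at 9.12 and 8.96 in hearts 2 and 3. Aldh1l2, the mitochondrial folate dehydrogenase that yields NADPH, stood at 8.53 and 9.04 against 8.13 and 8.14. Hearts 1 and 4 were highest in 6.51% of all genes called higher, which is near the share among the 22. Atf4, Atf5 and Aldh1l2 were singled out after their values were seen, and the difference in order was not tested.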
